A study of Drosophila melanogaster with 2 samples.

Results

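The genes described here encode the kinases and cyclins that act on RNA polymerase II as it leaves the promoter and elongates in Drosophila melanogaster: the 3 kinases Cdk12, Cdk9 and Cdk7 and the 3 cyclins CycT, CycK and CycH, or 6 of 13945 protein-coding genes on the 6 main chromosome arms. They were chosen by name with the peak signal, rank and summit distance of these same lists in view, so all of these values are given as a description and no test was run on them. For each gene every peak summit inside the gene body or within 2 kb of it was collected from each deposited list. The material was chromatin of whole embryos of both sexes, 0 to 24 h old, from a transgenic line that stably carries Bigmax with green fluorescent protein (GFP) at its C terminus. Both libraries, biological replicates 3 and 4, belong to this single group, so the design has no contrast between conditions and no untreated group. Titles and antibody labels name the libraries as Bigmax immunoprecipitations, while the free text of both calls them input controls. Here they were read as peak calls of an immunoprecipitation. Whole embryos mix all cell types, so strong occupancy in a few cells and weak occupancy in many cannot be told apart.

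Transcription by RNA polymerase II is paced by cyclin-dependent kinases that phosphorylate the repeated C-terminal domain (CTD) of its largest subunit. Cdk7 with CycH and Mat1 forms the kinase module of TFIIH and acts at initiation. Cdk9 with CycT forms P-TEFb, which releases the paused polymerase by phosphorylating the CTD and the pausing factors, and Cdk12 with CycK phosphorylates the CTD during productive elongation. Bigmax, the fly counterpart of mammalian Mlx, is a DNA-binding partner of Mondo, a factor that responds to sugar, and the pair is known to recognise the E-box CACGTG.

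The pooled list and the list of each replicate hold 30000 relaxed peaks each. The 1949 pooled peaks with the highest signal form the list that passed the authors' irreproducible discovery rate threshold, called reproducible here. The weakest of them had a signal of 111 in the peak caller's units, and the median of the whole pooled list was 35.9. Median signals were 22.7 in replicate 3 and 19.2 in replicate 4, so values are compared between lists only by rank or relative to each list's own median. The lists hold no read counts, and sequencing depth is unknown.

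Cdk12 carried one of the strongest peaks of the whole embryo data. A strong peak at Cdk9 was shared with the start of its neighbour bonsai. The other 4 genes had only relaxed peaks at their own starts. The strongest pooled summit within 500 bp of a gene's own transcription start had a signal of 2172 and rank 10 at Cdk12. At Cdk9 it had a signal of 420.4 and rank 256. CycT followed at rank 2594, CycH at 9135, Cdk7 at 11801 and CycK at 12934. Both replicates kept the order of Cdk12, Cdk9 and CycT at the top, while the order of Cdk7, CycK and CycH differed between lists, and CycK had no own-start summit in either replicate. Relative to Cdk9, the Cdk12 signal was 5.17 times as high in the pooled list, 4.82 times in replicate 3 and 5.58 times in replicate 4. Relative to CycT the corresponding ratios were 22.5, 18.0 and 30.1.

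**Figure D1:**
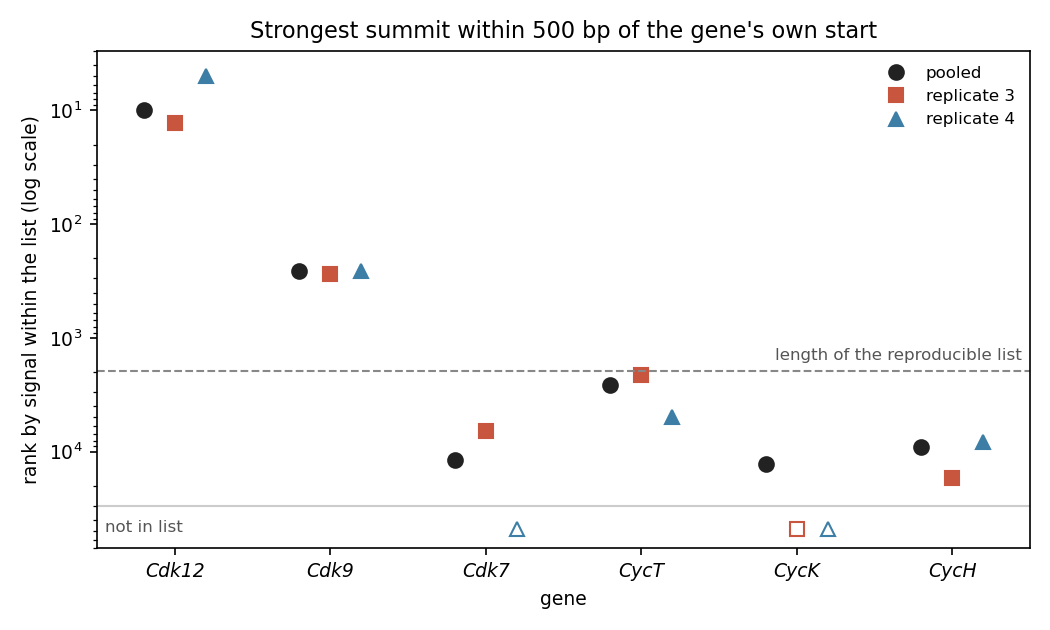
Rank by signal within each list (log axis, strongest at the top) of the strongest summit within 500 bp of each gene's own start, for the pooled list (circles), replicate 3 (squares) and replicate 4 (triangles). Open symbols mark lists with no such summit, and the dashed line is the length of the reproducible list, 1949. Cdk12 and Cdk9 lie above that line in every list. CycT lies below it in every list, at rank 2594 in the pooled list, 2112 in replicate 3 and 4951 in replicate 4.

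A reproducible summit within 500 bp of a start was found at 2 of the 6 genes, Cdk12 and Cdk9, beside 11.2% of all protein-coding genes. Counting only the 7907 genes with a pooled relaxed summit there, the background was 19.7%. All 6 members had such a relaxed summit, which 56.7% of all genes had. In both replicate lists a relaxed summit lay within 500 bp of a start at 4 of the 6, Cdk12, Cdk9, CycT and CycH, beside 45.4% of all genes. Over the gene body and 2 kb on each side, a reproducible summit was found at 3 of 6, beside 21.1%, and a relaxed summit in both replicates at 5 of 6, all but CycK, beside 73.0%. The gene added by this wider window was CycH, and its summit lay at the start of a neighbour, eIF2A. The summit counted for Cdk9 was also nearer to a neighbour, 10 bp from the start of bonsai and 33 bp from that of Cdk9. Since the rule used these values, nothing is read from the counts. Search windows ranged from 5.31 kb for CycH to 10.8 kb for CycT, and longer windows have more room for a summit.

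Sequence around the own-start summit is given for 5 of the 6 genes, on the strand of the gene, 5' to 3', from the Release 6 (dm6) assembly. The first shows the 6-mer beneath one of the strongest peaks, the next 3 show summits that lack it, and Cdk7 is shown over 101 bases because its summit lies between genes. The motifs searched, on both strands, were TAACCT, with its reverse complement AGGTTA, the E-box CACGTG, which is its own complement, and CGATAG, with its reverse complement CTATCG. Capitals mark a match to one of them, and none of them contains another.
Cdk12, chr3L:21517201-21517230: ttaTAACCTtaaaatgacaagttataaatt
CycT, chr3L:17557469-17557498: acacacacaaacaaacacgcagagacgcgg
CycK, chr2L:22129949-22129978: agttgttccatatactcaaaatcgtcgtgg
CycH, chr3L:21821981-21822010: ataaattcgccggcagctgagcaagatgta
Cdk7, chrX:5309046-5309146: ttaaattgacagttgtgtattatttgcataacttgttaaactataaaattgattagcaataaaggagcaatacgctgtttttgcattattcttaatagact

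Cdk12 (FBgn0037093), the CTD kinase of productive elongation, lies on the plus strand of 3L at 21516306 to 21522684, with 2 annotated starts 881 bp apart. The peak belonged to the downstream start, from which 2 of its 3 transcripts begin. Its summit stood at 21517216, which is 29 bp downstream of that start and in the 5' UTR. In replicate 3 the summit had a signal of 1127 and rank 13, and in replicate 4 a signal of 1046 and rank 5. The replicate summits were 1 and 2 bp from the pooled one, so the position varied by less than the distance to the start. These signals were 60.4, 49.7 and 54.6 times the median of the pooled, replicate 3 and replicate 4 lists. The peak was also wide, 675 bp in the pooled list and 625 and 621 bp in the replicates, where median widths were 400, 404 and 424 bp. Of the genes with a pooled promoter summit, 0.126% had one of this rank or better.

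The upstream start of Cdk12 carried only relaxed summits. The strongest within 500 bp of it had a signal of 74.6 in the pooled list, 60.6 in replicate 3 and 31.0 in replicate 4. The downstream start was therefore 29.1, 18.6 and 33.8 times as strong in the same lists. SAK, the gene of the centriole kinase counterpart of Plk4, starts 419 bp away on the other strand, and the pooled summit of 74.6 lay between the starts of the 2 genes, 144 bp upstream of that of SAK and nearer to it than to Cdk12. Another pooled summit, of 53.5 at rank 7547, lay 34 bp upstream of the upstream Cdk12 start. At the other end, past the gene, a reproducible summit of 125 at rank 1536 lay 110 bp downstream of the start of CG7611. It ranked 1355 in replicate 3, with a signal of 79.3, and 2124 in replicate 4, with 52.3. Within the transcribed part of Cdk12 beyond its starts the pooled list held summits of 41.0 and 40.0, little above the list median. Replicate 4 held a coding-exon summit of 36.2 at rank 4541, or 1.89 times its list median. In replicate 3 the strongest there was 30.1, or 1.33 times the median.

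CycK (FBgn0025674), the cyclin partner of Cdk12, lies on the minus strand of 2L at 22124285 to 22130142. Its own-start summit was in the pooled list only, with a signal of 39.0 at rank 12934, or 1.09 times the list median. It stood 178 bp downstream of the start, in the 5' UTR. Replicate 3 had no summit in the gene body or within 2 kb, and replicate 4 had 2, with signals of 29.2 and 12.9, both upstream of the gene. The stronger of these, at rank 6893, matched a pooled summit of 42.2 that lay 1394 bp upstream of CycK and 315 bp into its neighbour CG42748. The kinase and its cyclin thus stood at ranks 10 and 12934 of the same list.

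CycK was also the one member with the E-box recognised by Bigmax at a promoter. CACGTG began 39 bp downstream of its start, and its nearest base was 134 bp from the pooled summit, outside the 101 bp window used for motifs. The stretch is shown because it holds the only CACGTG within 300 bp of an own-start summit among the 6 genes, again on the gene strand, with CACGTG in capitals.
CycK, chr2L:22130086-22130115: gacggccaaaacCACGTGtaaatatatctg
Between 250 bp before and 50 bp after a start, CACGTG was present at 4.04% of the 19253 annotated protein-coding starts.

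Cdk7 (FBgn0263237), the kinase of TFIIH, lies on the minus strand of X at 5307465 to 5308983. Its start is 259 bp from that of snf, a gene of a spliceosomal protein that is read in the other direction. The pooled summit between them had a signal of 41.1 at rank 11801, 113 bp upstream of the Cdk7 start. In replicate 3 the summit had a signal of 35.1 and rank 6537, and it was nearer to snf, 109 bp upstream of its start. Replicate 4 had none within 500 bp of the Cdk7 start, and its nearest summit, of 16.0 at rank 20565, lay 284 bp into snf. The replicate 3 summit was 37 bp from the pooled one, on the side of snf, and the replicates share no summit position here.

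CycH (FBgn0022936), the cyclin of the same kinase module, lies on the plus strand of 3L at 21821997 to 21823309. A pooled summit of 47.8 at rank 9135 lay 1 bp upstream of its start. Replicate 3 placed it 40 bp upstream, with a signal of 21.3 at rank 17040, and replicate 4 placed it 37 bp downstream, in the first coding exon, with 26.6 at rank 8172. These were 1.33, 0.937 and 1.39 times the median of each list, so the replicate 3 peak fell below the median relaxed peak. The reproducible summit in its window had a signal of 154 at rank 1072 and stood 1629 bp past the end of CycH and 27 bp upstream of a start of eIF2A, a translation initiation factor gene. That summit was alike in both replicates, with signals of 78.8 at rank 1372 and 72.9 at rank 1105.

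CycT (FBgn0025455), the cyclin of P-TEFb, lies on the minus strand of 3L at 17551004 to 17557788. Its summit came closest to the reproducible list from below, with a pooled signal of 96.7 at rank 2594, or 0.871 times the signal of the last reproducible peak. It ranked 2112 in replicate 3, with a signal of 62.7, and 4951 in replicate 4, with 34.8. All lists put the summit at nearly the same place, 304 bp downstream of the start in the pooled list and replicate 3 and 309 bp downstream in replicate 4, within the 5' UTR of the 3 transcripts that begin there. The second annotated start, 1957 bp further in, had no summit within 500 bp in any list. Own-start summits of the other members in the pooled list lay from 1 to 178 bp from the start, so that of CycT was the farthest.

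Cdk9 (FBgn0019949), the kinase of P-TEFb, lies on the minus strand of 2R at 22636063 to 22637727. Its peak, from 22637596 to 22637971, covered the starts of 2 genes that are only 43 bp apart and read in opposite directions. The other is bonsai, which encodes a mitochondrial ribosomal protein. The summit lay between these starts, 33 bp upstream of that of Cdk9 and 10 bp upstream of that of bonsai, so it cannot be assigned to either gene. Signals and ranks were 420.4 and 256 in the pooled list, 234 and 272 in replicate 3, and 187 and 257 in replicate 4. Among the 4 genes with an own-start summit in every relaxed list, this one had the most even rank. A second summit within the same pooled peak, 239 bp upstream of the Cdk9 start, had a signal of 43.0 at rank 10959. The 2 members of P-TEFb stood at ranks 256 and 2594 of the pooled list.

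Most summits in these windows stood nearer to the start of another gene than to the member's own. In the pooled list 28 summits lay in the 6 windows, 8 of them at Cdk12, 7 at Cdk9, 5 at CycT, 3 each at Cdk7 and CycH, and 2 at CycK. The nearest start belonged to the member for 10 of the 28, for 11 of 27 in replicate 3 and for 9 of 24 in replicate 4. The same share over all protein-coding genes was not computed, and windows that reach 2 kb past a gene take in starts of neighbours. These counts are therefore not read as a trait of the 6 genes. Of the 4 reproducible summits only that of Cdk12 was nearest to a start of the member itself. Pooled summits numbered 1.24 per kb at Cdk9, 0.771 at Cdk12, 0.565 at CycH, 0.544 at Cdk7, 0.464 at CycT and 0.203 at CycK, where the median over all protein-coding genes was 0.318. At the edge of the 2 kb window, the last pooled summit inside lay 1908 bp past CycT, with a signal of 41.5, and the first outside lay 2047 bp upstream of Cdk12, with 36.5.

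**Figure D2:**
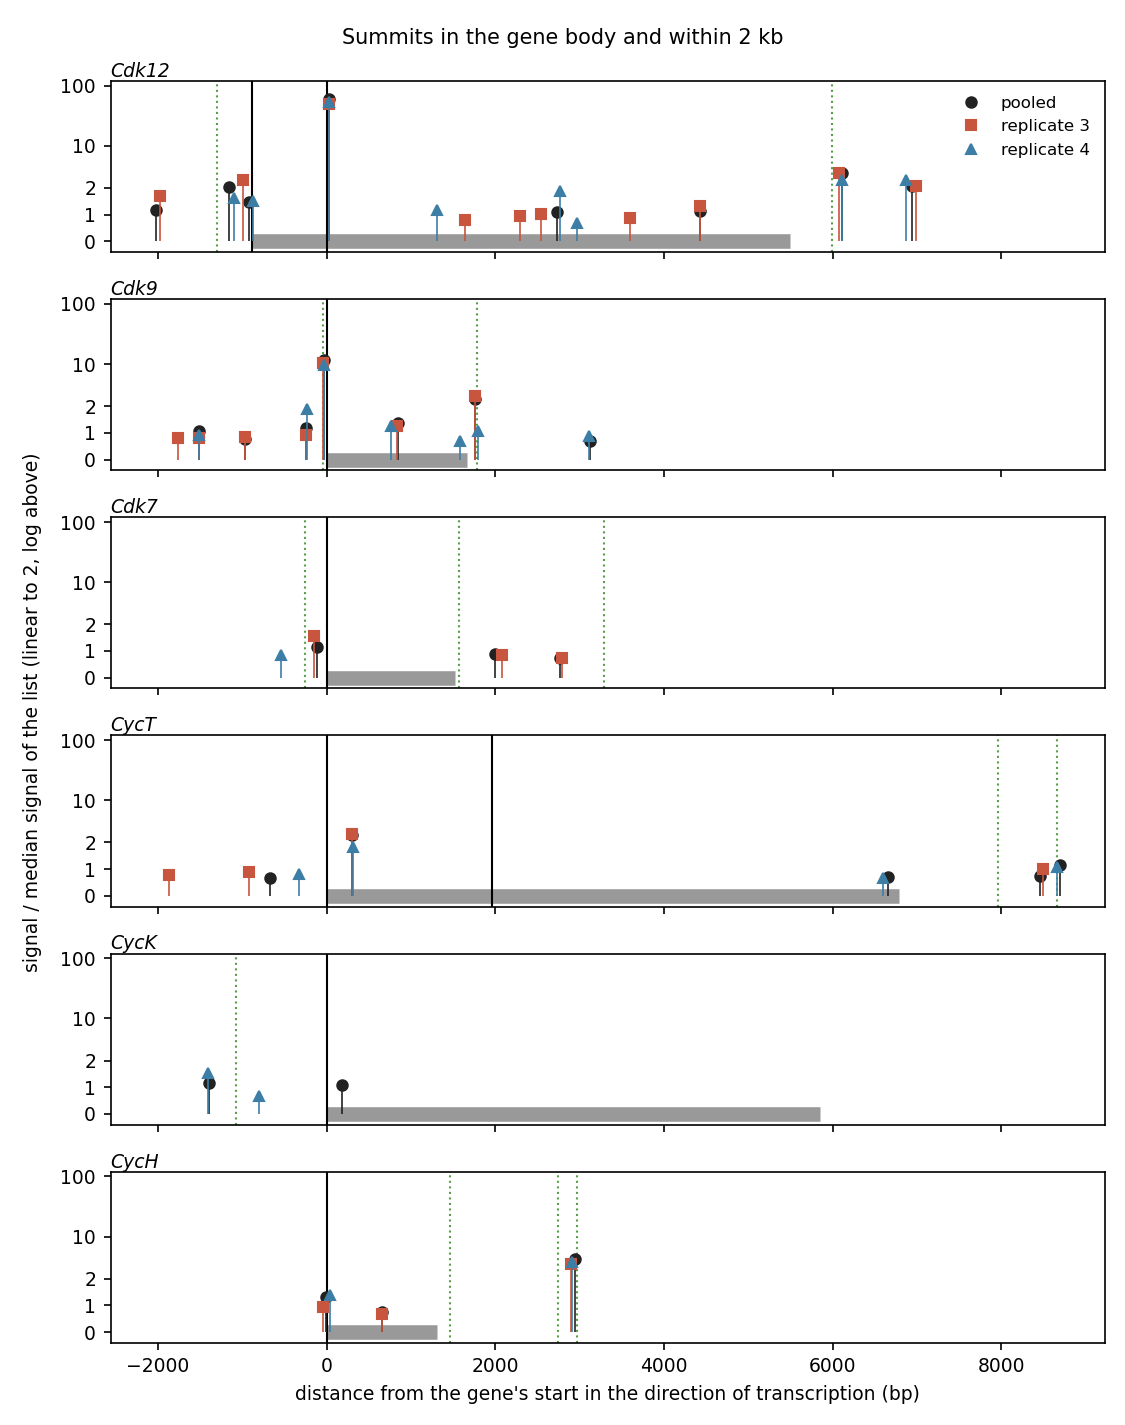
Summits in the body of each gene and within 2 kb, by distance in bp from the start nearest its own-start summit, in the direction of transcription; height is signal divided by the median of the same list (linear to 2, logarithmic above). Grey bars are gene bodies, black lines own starts and dotted green lines starts of other protein-coding genes; the Cdk12 summit reaches 60.4 times the median in the pooled list, and tall summits far from the start, at Cdk12, Cdk9 and CycH, sit beside dotted lines.

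Sequence at the own-start summits differed among the members. TAACCT, which reads AGGTTA on the other strand, lay within 50 bp of the summit at Cdk12 alone of the 6, with its nearest base 7 bp from the summit and its first base 17 bp downstream of the start. Of all reproducible summits 19.8% had it in this 101 bp window, of the strongest 195 56.9%, and of weak pooled summits 3.43%. No source outside these peaks is given for TAACCT, so these shares are a description only. At Cdk9 the nearest base was 52 bp from the pooled summit, just outside the window, and around the replicate 3 summit it fell inside. The reproducible summit at CG7611, beyond the end of Cdk12, also held it within 50 bp. CGATAG lay within 50 bp of the Cdk9 summit, 22 bp from it, and of no other member summit, against 9.59% of reproducible and 4.05% of weak summits. This depended on the window. With 25 bp on each side no member summit had the whole of CGATAG. With 100 bp on each side the summits of Cdk12, Cdk9 and Cdk7 had it. The wider window also raised the background shares, to 15.2% (reproducible) and 7.06% (weak). CACGTG was found at none of the 6 in the 101 bp window, and 2.72% of reproducible summits had it.

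Around the 8 annotated starts of the 6 genes, from 250 bp before to 50 bp after, TAACCT or its complement was present at 2, at Cdk12 and Cdk9, against 6.82% of all protein-coding starts. CGATAG was present at 2, at Cdk9 and Cdk7, against 17.8%. GC content within 50 bp of the summit ran from 25.7% at Cdk7 through 32.7% at Cdk12 and CycK, 44.6% at Cdk9 and 51.5% at CycH to 56.4% at CycT. Means were 42.6% for reproducible and 45.4% for weak summits. The member with the strongest peak thus shared its GC content with the member with the weakest own-start peak.

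Among the genes nearest to Cdk12 in the rank of their strongest reproducible promoter summit were eIF2beta at rank 11, eEF1beta at 8 and RpS29 at 12. Their signals were 2121, 2320 and 2048. The first 2 encode translation factors and RpS29 a ribosomal protein. In replicate 3 the ranks were 10 for eIF2beta, 8 for eEF1beta and 17 for RpS29, and in replicate 4 they were 12, 7 and 9. None of these 3 summits had any of the 3 motifs within 50 bp, whereas that of Cdk12 had TAACCT.

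Other genes of transcription elongation, together with other transcription, splicing and cell-cycle kinases and cyclins, were set beside the members in 7 lists of 55 names. The 52 that matched an annotated gene carried a reproducible promoter summit in 18 cases, 34.6%, beside 11.2% of all protein-coding genes. A pooled relaxed promoter summit was present at 47 of the 52, beside 56.7% of all protein-coding genes. Its median rank was 2367, against a median of 5985 over the 7907 genes that had one. These lists were chosen with earlier results of these data known, so nothing is read from these shares and ranks. Of the 18 summits, 11 or 61.1% had a start of a different gene within 500 bp as well, as did 48.9% of those of all 1557 genes, and such summits cannot be assigned to one gene. The pausing factors DSIF and NELF had the highest share of reproducible promoter summits in the 7 lists, 5 of 6, beside 11.2% of all protein-coding genes. Nelf-E, an RNA-binding subunit of NELF, had 392 at rank 274, shared with the start of RpL14. Nelf-A had 185, the DSIF subunits Spt5 156 and spt4 131. TH1, a further NELF subunit, was the fifth with 118, and NELF-B, at 31.4 and rank 19101, was the sixth without; these last 2 were named after their values were seen. The summits of Nelf-A, Spt5 and TH1 were also shared, with starts of CG3337, Fak and mei-41, so of these 5 only that of spt4 had no start of another gene within 500 bp.

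Factors that help polymerase through chromatin and along the gene had a reproducible promoter summit in 5 of 13 cases, or 38.5%. The share over all protein-coding genes was 11.2%. Ssrp, a subunit of the histone chaperone FACT, led with 659.8 at rank 138, followed by the Elongin subunit EloC with 345, TfIIS, which rescues arrested polymerase, with 166, and the histone methyltransferase Set2 with 149. Genes that control P-TEFb or belong to the super elongation complex had 1 of 8, or 12.5%, near the share over all genes. It was Larp7, which helps hold P-TEFb inactive in its small nuclear RNA complex, with 159. Partners of Cdk7 and CycH in TFIIH had 2 of 7, or 28.6%, at Ssl1 with 415 and Tfb1 with 124. Mat1, their partner in the kinase module, had only a relaxed summit of 72.5 at rank 4409. Of the reproducible summits named in this paragraph, those of Ssrp, Set2, Larp7 and Ssl1 also had a start of another gene within 500 bp. These were CG5543, CG1998, mxc and Chro in that order.

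Among the other transcription and splicing kinases and cyclins 2 of 4 had one, beside 11.2% of all protein-coding genes. They were CycC, the Mediator cyclin, with 489 and CG16903 with 129, while Cdk8, the kinase partner of CycC, stood at rank 21680. Both reproducible summits were shared with a neighbour, UQCR-C1 for CycC and Unc-76 for CG16903. Cell-cycle kinases and cyclins had 3 of 12, or 25%, at Cdk4 with 309.9, Cdk2 with 205 and CycG with 165. The 2 CTD phosphatase genes, Fcp1 and Ssu72, had none, and nothing is read from lists this short. Within all lists the highest signal was that of Ssrp, 659.8, below that of Cdk12.

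**Figure D3:**
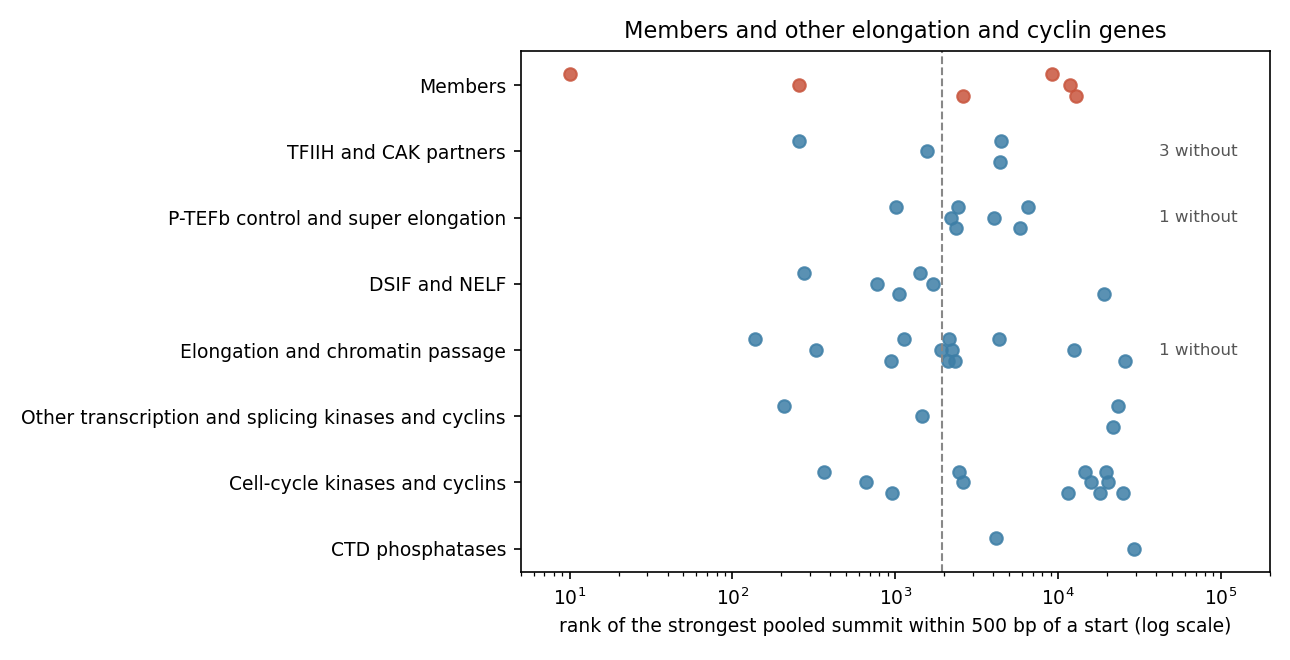
Rank in the pooled list (log axis) of the strongest summit within 500 bp of a start for each member (red) and for each gene of the 7 other lists (blue), with the number of genes that had none written at the right. The dashed line marks rank 1949, the end of the reproducible list. Cdk12 at rank 10 lies to the left of all other points. Of the 6 DSIF and NELF genes 5 lie left of the line, beside 11.2% of all protein-coding genes.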

How the data were processed

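As the deposited notes on each file record, the authors mapped reads to dm6, called relaxed peaks on each replicate and on both together against one control alignment, and thresholded the pooled calls by irreproducible discovery rate. Which caller was used is not given in these sources. The authors' signal value per peak is in the caller's units. The deposited −log10 q-value per peak was read but not used to rank, since it is equal throughout the reproducible list. The 1949 reproducible lines were checked to be the strongest pooled lines.

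Lines were read with Python 3.11.15 and pandas 2.3.3. Coordinates are 1-based, and 0 peaks ran past a chromosome end of the Release 6 assembly. Gene models came from Ensembl release 115. Summits were assigned by distance to protein-coding transcript starts (500 bp) or to the gene (2 kb). Weak peaks are the 27650 pooled peaks with no base shared with a reproducible peak. Counting steps were tested on simulated peaks.

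Members and gene lists were chosen with earlier results of these data known. Of the listed names 3 matched no gene. Named genes are the members, genes with a start within 500 bp of a reproducible summit at a member, up to 4 per list by signal, and the 5 nearest Cdk12 in rank, of which some are not reported here. Other neighbours were named to place a summit, after their values were seen. The labels call the libraries biological replicates. No significance test was run.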

Additional observations from a re-analysis of the deposited data

How the results depend on the processing

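The reproducible promoter count stayed at 2, Cdk12 and Cdk9, with windows of 250 and 1000 bp and in the 974 strongest peaks. It was also 2 with only summits found within 50 bp in both replicate lists (chosen after seeing the data). No reproducible list exists for a single replicate. To leave out 1 replicate in this and the other reproducible counts, the 1949 strongest relaxed peaks of the other were used. The promoter count was then 2 with either. Over gene body and flank the count of 3 fell to 1, Cdk12, with a flank of 0 kb, which leaves out the Cdk9 summit between the genes and the CycH summit at eIF2A. It was 2, without CycH, with a flank of 1 kb and in the 974 strongest peaks, and stayed at 3 with a flank of 5 kb and without either replicate. The count with a relaxed summit in both replicates, 5, ran from 4 to 6 with other flanks. Genes with a relaxed summit in a single replicate list, with no need for the other, numbered 5 to 6 (added after seeing the data). TAACCT at member summits, 1 gene, became 2 with a window of 100 bp either side, and ran from 1 to 2 over the summits of single replicates, the second being Cdk9. The count of 18 listed genes was 10 in the 974 strongest peaks and 16 to 18 leaving out one replicate, and summits in the windows, 28 pooled, numbered 24 to 27 in single replicates; both sets were added after seeing the data. No rank could be given for Cdk7 in replicate 4 or for CycK in either replicate, where the own-start summit was absent. These losses are not counted among the 27 alternatives with a value. Of those single-gene ranks and distances, 22 of the 27 moved by no more than 1.5 times or not at all. The exceptions were the ranks of Cdk12 and CycT in replicate 4 and of Cdk7 and CycH in replicate 3, given above, and the Cdk9 distance, 10 bp to any start and 33 bp to its own. No paired analysis was possible because there is a single group. Ranks near the end of a list of fixed length depend on that limit.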

Other observations

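A summit by the 3' end of Cdk9, near the start of CG17807, was present in both replicates at different ranks. It had a pooled signal of 93.4 at rank 2777. Replicate 3 placed it at rank 1859, among its 1949 strongest peaks, with a signal of 66.6, and replicate 4 at rank 13142 with 20.6. The cause was not tested.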
